A study of Mus musculus with 14 samples.

Results

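The genes that sense, move or store iron in the liver, or that encode the iron hormone hepcidin, were followed in mice that lacked the m6A writer Mettl3 in hepatocytes. They were Hamp, Hamp2, Bmp6, Tfr2, Hfe, Trf, Tfrc, Fth1, Ftl1 and Slc40a1, chosen by name, and they made up 10 of the 54446 genes measured. The knockout group was 8 livers of C57BL/6 mice that carried floxed Mettl3 and Alb-Cre, in which the albumin promoter switches on Cre recombinase in hepatocytes. The control group was 6 livers of C57BL/6 mice with floxed Mettl3 and no Alb-Cre, so the floxed allele was shared by both groups. Cells of a knockout liver in which Cre was never active keep the gene. All mice were 5 weeks old. Whole liver was flash frozen and its total RNA was sequenced. The series states that it profiled livers of wild-type and liver-specific Mettl3 knockout mice.

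Iron leaves cells through ferroportin, the exporter encoded by Slc40a1, and hepcidin, a peptide secreted by hepatocytes, binds ferroportin and has it degraded. Hepatocytes make more hepcidin when BMP6 from the liver endothelium signals through SMAD proteins, when transferrin loaded with iron is sensed by TFR2 and HFE, and when IL-6 activates STAT3. Inside cells, the iron regulatory proteins IRP1 and IRP2 bind hairpins in mRNA called iron-responsive elements, which hold back translation of ferritin and ferroportin mRNA and protect the transferrin receptor mRNA from decay when iron is scarce. Mice carry a pair of hepcidin genes, Hamp and Hamp2. Hamp encodes the iron hormone, while in mice the product of Hamp2 is not known to control iron, and Hamp2 RNA is known to be higher in female than in male mouse liver.

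The promoters of the hepcidin genes are shown first, because these close copies differed in the data. Both genes lie on chromosome 7, Hamp at chr7:30942368-30944032 and Hamp2 at chr7:30922372-30924681, both on the minus strand of GRCm38. The stretches below are the 130 bases before each RefSeq start (GRCm38.p6, minus strand, 5′ to 3′), at chr7:30944030-30944159 for Hamp and at chr7:30924182-30924311 for Hamp2. The last 3 bases of the Hamp stretch fall in its first exon in the GENCODE annotation, and the Hamp2 stretch ends where the annotated first exon of its main transcripts begins. The whole Hamp2 stretch lies inside the annotated span of the gene, which reaches further 5′. Capitals mark first the GGCGCC core of the BMP-responsive element of Hamp, or its counterpart in Hamp2, and then a STAT site of the form TTCNNNGAA.
Hamp: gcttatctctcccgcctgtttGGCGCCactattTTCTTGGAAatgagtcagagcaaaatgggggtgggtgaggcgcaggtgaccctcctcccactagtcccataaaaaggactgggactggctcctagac
Hamp2: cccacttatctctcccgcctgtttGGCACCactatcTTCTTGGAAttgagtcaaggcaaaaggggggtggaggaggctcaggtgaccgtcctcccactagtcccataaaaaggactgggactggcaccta

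Aligned with each other, the stretches differed by 12 substitutions, and 1 of them, G25A, lies in the BMP core (positions counted from 1 at the 5′ end of the Hamp stretch, Hamp base first). Over 250 bases before the start the alignment was 89.7% identical. The core GGCGCC, which reads the same on both strands, stood 109 bases before the start of Hamp and was not in the 250 bases before Hamp2. It was found in 9.59% of 32851 mouse promoter windows of that length. The STAT form TTCNNNGAA, also the same on both strands, stood 97 bases before the start of Hamp and 94 bases before that of Hamp2, and was found in 7.02% of windows. These are matches of letters only. The transcripts of the genes, 410 bases for Hamp and 420 bases for Hamp2, aligned at 92.4% identity, so reads can be shared between them and the split between their values is uncertain.

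Iron-responsive elements are shown for Tfrc, Fth1, Ftl1 and Slc40a1, chosen beforehand as members that the iron regulatory proteins bind. Matches in the other members were not listed. The pattern was a C, 5 stem bases, the loop CAGTGN and 5 bases that pair with the stem, searched on the RNA strand of GENCODE transcripts. Capitals mark the loop. Tfrc, on chromosome 16, held 4 matches to this pattern in its 3′ UTR. Fth1, Ftl1 and Slc40a1, on chromosomes 19, 7 and 1, held 1 each in the 5′ UTR. Elements of another form would be missed.
Tfrc element 1: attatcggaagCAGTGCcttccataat
Tfrc element 2: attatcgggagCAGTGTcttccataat
Tfrc element 3: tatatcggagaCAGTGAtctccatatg
Tfrc element 4: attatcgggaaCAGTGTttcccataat
Fth1: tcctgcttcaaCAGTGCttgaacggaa
Ftl1: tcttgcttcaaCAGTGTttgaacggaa
Slc40a1: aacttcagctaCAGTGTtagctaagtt

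The pattern was found in the 5′ UTR of 21 of 18986 genes (0.111%) and in the 3′ UTR of 100 of 19610 genes (0.51%). The elements act on translation and RNA decay, and the RNA values below hold nothing on translation.

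The values are normalised estimated counts per gene and library, made by the authors, and levels are compared between livers within a gene. Depth was 11.1 to 33.8 M estimated reads per library (M, megareads). Mettl3 averaged 99.5 ± 15.7 in knockout livers and 223 ± 23.7 in control livers (SD, n = 8 and 6), and every knockout liver lay below every control liver. The labels do not give sex, but Xist and 4 Y-linked genes put the livers into Y-positive and Xist-high classes: 4 knockout and 4 control livers were Y-positive (replicates 1 to 4 of each group), and 4 knockout and 2 control livers were Xist-high. Xist-high libraries averaged 13.9 M estimated reads and Y-positive libraries 29.2 M, so sex and depth cannot be told apart. Knockout livers 6 and 7 stood apart with 7.85% and 7.91% of their signal from mitochondrially encoded mRNA, against 2.77% to 5.47% in the other livers. Knockout liver 3, which some fits below leave out together with them, did not stand apart in this share, at 3.53%. The summed values of 15 hepatocyte markers came to 615853 to 983369 in knockout livers and to 1053090 to 1246790 in control livers. Of the 15, 9 were called lower and 0 higher, beside 11.0% and 11.5% of all genes tested. The count lower was 5 when library sums outside ribosomal RNA were made equal, where 865 of 23666 genes were called lower. It was 2 with quantile normalization, where 2398 of 23554 genes were. Without knockout livers 3, 6 and 7 it was 6, where 2203 of 22515 genes were. The 12 stellate cell markers summed to 5007 to 8719 in knockout livers and 7183 to 9246 in control livers. Of them 1 was called lower and 0 higher, beside the same 11.0% and 11.5% of all genes. In these bulk samples fewer cells of a type and less RNA per cell cannot be told apart.

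Of the 10 iron genes, 1 was called higher (Hamp2) and 1 lower (Tfr2) in knockout livers, by limma at an adjusted p of at most 0.05. Over all 23554 genes tested, 22.4% were called, 11.5% higher and 11.0% lower, so the share of the iron genes called was near the background. All 10 passed the filter on low values, and each had a value of at least 20.8 in every liver. The median change of the 10 was -0.07 on the log2 scale, against 0.05 over all genes tested. Changes are on the scale of log2(value + 1), knockout minus control.

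**Figure D1:**
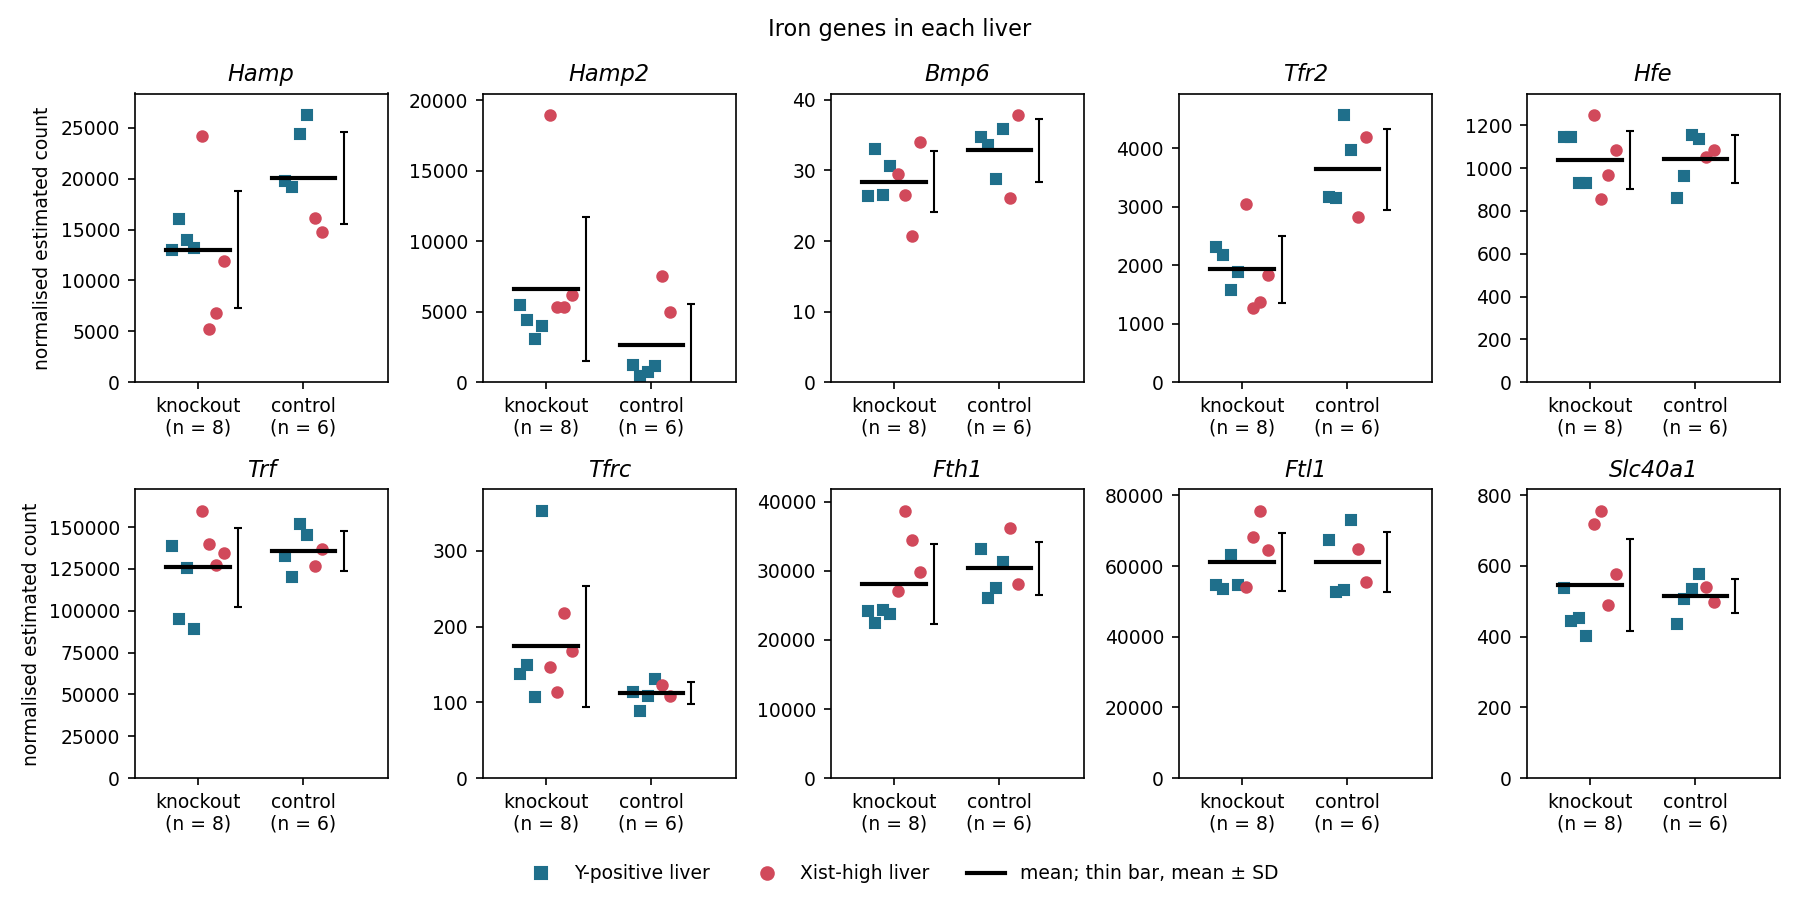
Normalised estimated count (vertical axis, from 0) of each iron gene in each liver, knockout on the left and control on the right of each panel. Squares are Y-positive and circles Xist-high livers, thick lines are means and thin bars mean ± SD; the lower end of the bar for Hamp2 in controls falls below 0 and is not drawn. Tfr2 lay below the control mean of 3647 in all 8 knockout livers, and Hamp2 lay above the control mean of 2653 in all 8.

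Hamp2 was the iron gene with the largest change. Its values were 3052 at the lowest, 5332 at the median and 18978 at the highest of the 8 knockout livers, and 436, 1154 and 7516 in the 6 control livers. All 8 knockout livers were above the control mean, but the ranges of the groups overlapped, with the Xist-high controls inside the knockout range. The means were 6599 ± 5099 in knockout livers and 2653 ± 2908 in control livers (SD), and Hamp2 rose by 1.84 on the log2 scale (SE 0.57, limma adjusted p = 0.0305), which is 3.58-fold. The call was lost when any 1 of control livers 1 to 4 was left out, with limma adjusted p of 0.0602 to 0.0737. It was also lost without knockout livers 3, 6 and 7, at a change of 2.04 (limma adjusted p = 0.0539), with depth in the model, at 1.20 (limma adjusted p = 0.0683), and with no filter on low values (limma adjusted p = 0.0722).

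Split by class, the Y-positive knockout livers held Hamp2 at 5508, 4383, 3052 and 4017, against 1195, 436, 687 and 1113 in the Y-positive control livers. These groups did not overlap, as was so for 11.5% of all genes in this direction, and the change within the class was 2.38 (SE 0.40, limma adjusted p = 0.00256, where 12.4% of all genes were called). Among Xist-high livers the values were 18978, 5307, 5357 and 6191 in knockouts and 7516 and 4969 in controls, and here the change was 0.32 (SE 0.49, limma adjusted p = 0.747, where 6.71% of all genes were called). The Xist-high groups overlapped, and both Xist-high controls lay above all 4 Y-positive controls. The difference between the classes in the genotype change was -2.07 (SE 0.63), and it did not pass over all genes (limma adjusted p = 0.740). Of the 10 iron genes, 0 passed that test of genotype by class and 1, Hamp2, was under 0.05 before adjustment. Over all genes 0.0552% passed.

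Between the classes, with genotype in the model, Hamp2 was 1.70 higher on the log2 scale in Xist-high than in Y-positive livers (SE 0.40, limma adjusted p = 0.0412). It was the 1 iron gene of 10 called there, where 1.95% of all genes were called. This call was lost in 10 of the 14 fits that left out 1 liver, with no filter, and with depth in the model, under which 3 genes in all were called higher and 3 lower between the classes. With the class in the model the knockout change of Hamp2 was 1.56 (SE 0.40, limma adjusted p = 0.0113).

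Hamp, the gene of the iron hormone, did not pass the threshold. Its values were 5257 at the lowest, 13116 at the median and 24157 at the highest of the knockout livers, and 14753, 19522 and 26280 in the control livers. Of the 8 knockout livers, 6 lay below every control liver, and knockout liver 5 lay above the control mean. The means were 13044 ± 5781 in knockout livers and 20101 ± 4521 in control livers (SD), a change of -0.73 (SE 0.28, limma adjusted p = 0.0733). Without knockout liver 5 the change was -0.87 and passed (limma adjusted p = 0.0202). The change of Hamp was smaller without knockout livers 3, 6 and 7 (-0.38, limma adjusted p = 0.209), with equal sums (-0.39, limma adjusted p = 0.235) and with quantile normalization (-0.25, limma adjusted p = 0.564).

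In the Y-positive class Hamp was at 13042, 16064, 13936 and 13191 in knockout livers, against 19814, 19229, 24420 and 26280 in control livers. These groups did not overlap, as was so for 11.8% of all genes in this direction. The change within the class was -0.67 (SE 0.35, limma adjusted p = 0.229) in the model of all livers and -0.67 (limma adjusted p = 0.0201) when the Y-positive livers were tested alone, where 17.2% of all genes were called. Xist-high livers held 24157, 5257, 6839 and 11865 in knockouts and 16112 and 14753 in controls. The spread there was wide: the highest and the lowest Hamp value of all 8 knockout livers were both in this class.

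Beside these hepcidin values, the hepatocyte markers summed to 983369 in knockout liver 5, the highest of the knockouts, and to 677205 and 615853 in knockout livers 6 and 7, which held the lowest Hamp and Tfr2 values. The part of hepatocyte RNA content in the hepcidin values was not tested.

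The estimated changes of Hamp and Hamp2 had opposite signs, though that of Hamp did not pass and in Xist-high livers neither passed. The mix of hepcidin RNA differed between the groups. Hamp2 made up 29.7%, 21.4%, 18.0% and 23.3% of the summed Hamp and Hamp2 values in Y-positive knockout livers, against 5.69%, 2.22%, 2.74% and 4.06% in Y-positive control livers. In Xist-high livers its share was 44.0%, 50.2%, 43.9% and 34.3% in knockouts and 31.8% and 25.2% in controls. Within each class every knockout liver held a larger share than every control liver. The sum of both genes was 16989 to 20447 in Y-positive knockout livers and 19665 to 27393 in Y-positive control livers. In Xist-high livers the sum was 10564 to 43135 in knockouts and 19721 to 23628 in controls, so the knockouts lay on both sides of the controls. These shares have no interval, since the values are estimated, normalised counts and reads can be shared between the copies.

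**Figure D2:**
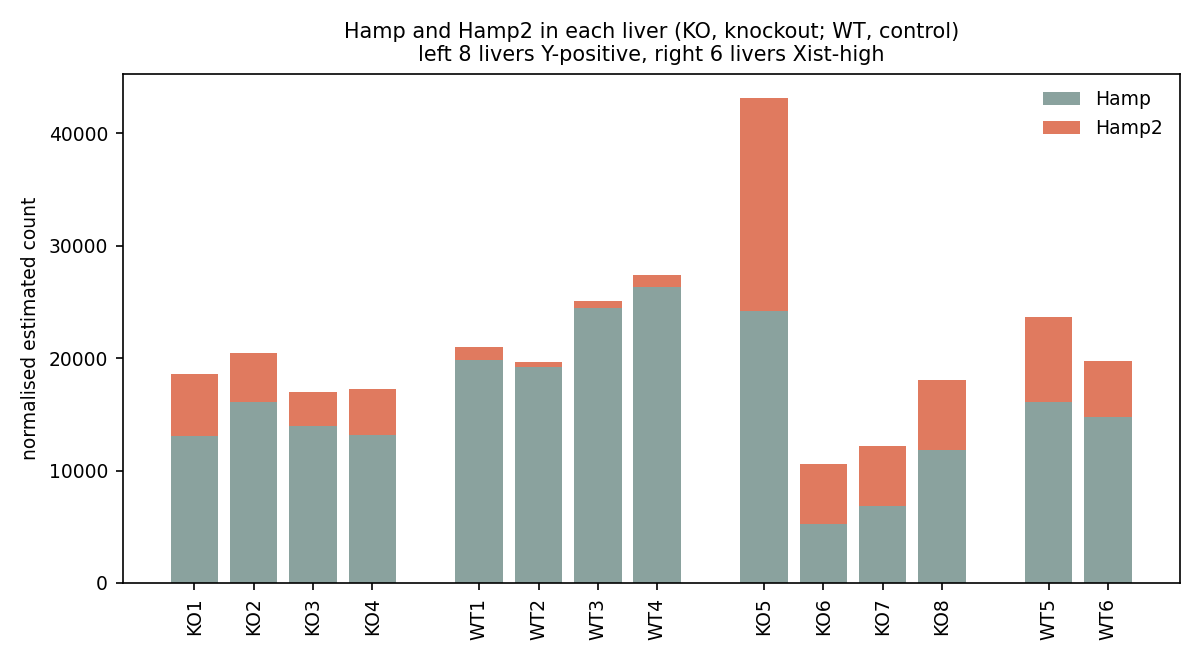
Normalised estimated counts of Hamp and Hamp2 stacked for each liver (vertical axis, from 0), with Y-positive livers on the left, Xist-high livers on the right, and knockouts left of controls in each class. Hamp2 makes up 18.0% to 29.7% of the bar in Y-positive knockout livers and 2.22% to 5.69% in Y-positive control livers.

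Bmp6, the endothelial ligand that drives hepcidin through SMAD signalling, was low and did not pass. It was at 20.8, 27.99 and 34.1 (lowest, median, highest) in knockout livers and at 26.1, 34.2 and 37.9 in control livers. The groups overlapped over most of their range, and the change was -0.21 (SE 0.15, limma adjusted p = 0.356). The 12 other endothelial markers summed to 4780 to 8269 in knockout livers and 7092 to 8769 in control livers. Of them 6 were called lower and 0 higher, beside 11.0% and 11.5% of all genes. With equal sums 0 were called, where 865 of 23666 genes were called lower and 7885 higher. With quantile normalization 4 were called lower, where 2398 of 23554 genes were. The part of endothelial RNA content in the Bmp6 values was not tested.

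Tfr2, the sensor of iron-loaded transferrin on hepatocytes, had the smallest adjusted p of the 10. It was at 1264, 1855 and 3048 in knockout livers and at 2832, 3569 and 4575 in control livers (lowest, median, highest). Of the 8 knockout livers, 7 were below every control liver, and knockout liver 5 was above the lowest control only. Tfr2 averaged 1931 ± 579 in knockout livers and 3647 ± 693 in control livers (SD), and it fell by 0.95 on the log2 scale (change -0.95, SE 0.18, limma adjusted p = 0.00179).

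The fall of Tfr2 had a similar size in both classes. Y-positive livers held 2307, 2172, 1573 and 1880 in knockouts, against 3166, 3150, 4575 and 3972 in controls, a change of -0.90 (SE 0.25, limma adjusted p = 0.0315). Xist-high livers held 3048, 1264, 1371 and 1830 in knockouts, against 2832 and 4188 in controls, a change of -0.97 (SE 0.31, limma adjusted p = 0.0728). The difference between the classes was -0.06 with an SE of 0.39. The Tfr2 gene lies at chr5:137569840-137587481 on the plus strand. Over all livers the Tfr2 change was -0.61 with equal sums, -0.76 with quantile normalization and -0.70 without knockout livers 3, 6 and 7. Hepatocyte markers moved the same way, with a median change of -0.73 over the 15. Their median was -0.39 with equal sums, -0.26 with quantile normalization and -0.38 without knockout livers 3, 6 and 7. Their part in the Tfr2 values was not tested.

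Hfe, the partner of TFR2 in iron sensing, was at 856, 1027 and 1248 in knockout livers and at 858, 1069 and 1156 in control livers (lowest, median, highest). The ranges overlapped, and the change was -0.01 (SE 0.10, limma adjusted p = 0.967). Trf encodes transferrin, the carrier of iron in plasma. It was at 88873, 130686 and 159656 in knockout livers and at 120447, 134970 and 152037 in control livers. Below every control liver were 2 knockout livers and above them 1, and the change was -0.13 (SE 0.17, limma adjusted p = 0.632).

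Tfrc encodes the transferrin receptor that takes up iron into most cells. It was at 108, 148 and 353 in knockout livers and at 88.4, 111 and 131 in control livers (lowest, median, highest). Of the 8 knockout livers, 6 lay above every control liver, and knockout liver 4 stood far above the rest. The means were 174 ± 79.9 in knockout livers and 112 ± 14.8 in control livers (SD), a change of 0.54 (SE 0.22, limma adjusted p = 0.0934), which did not pass. Red cell precursors also express Tfrc, and 13 other erythroid markers summed to 6631 to 14829 in knockout livers and to 6143 to 22089 in control livers. The erythroid sum of knockout liver 4, at 7866, lay within the range of the other knockouts. Of the 8 erythroid markers tested, 0 were called by limma in either direction, where 22.4% of all genes were called. Before adjustment 1 was under 0.05. Tested within a class, the median change of 7 erythroid markers was -0.51 in Y-positive livers and 0.57 in Xist-high livers, where 4 of the 7 were under 0.05 before adjustment and 0 were called. For genotype by class, 6 of 8 were under 0.05 before adjustment. The part of erythroid RNA in the Tfrc values was not tested.

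The ferritin subunits, which form the shell that stores iron, did not pass. Fth1, the heavy chain, was at 22466, 25672 and 38680 in knockout livers and at 26123, 29679 and 36143 in control livers (lowest, median, highest), a change of -0.13 (SE 0.14, limma adjusted p = 0.563). The Y-positive groups did not overlap, with 22466 to 24271 in knockouts and 26123 to 33169 in controls, and the change within that class was -0.31 (SE 0.16, limma adjusted p = 0.217). With Fth1, 3 of the 10 iron genes lay wholly lower in Y-positive knockout livers (Hamp, Tfr2 and Fth1) and 1 wholly higher (Hamp2), beside the shares of 11.8% and 11.5% of all genes given above.

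Ftl1, the light chain, was at 53648, 58921 and 75627 in knockout livers and at 52747, 60127 and 73057 in control livers. The groups covered the same range, and the change was -0.00 (SE 0.14, limma adjusted p = 0.999). Both ferritin genes have processed copies with which reads can be shared. The most abundant copy, Ftl1-ps1, averaged 544 over all livers.

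Slc40a1, the iron exporter of hepatocytes and Kupffer cells, was at 402, 513 and 756 in knockout livers and at 437, 521 and 578 in control livers (lowest, median, highest). The knockout livers were spread more widely on both sides of the controls, and the change was 0.05 (SE 0.14, limma adjusted p = 0.817). It was -0.16 among Y-positive livers and 0.27 among Xist-high livers, and the difference between the classes, 0.43 (SE 0.24), did not pass (limma adjusted p = 0.829). The 13 other Kupffer cell markers summed to 7472 to 19282 in knockout livers and 11057 to 14127 in control livers. By limma 0 of them were called, where 22.4% of all genes were, and 0 were under 0.05 before adjustment.

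**Figure D3:**
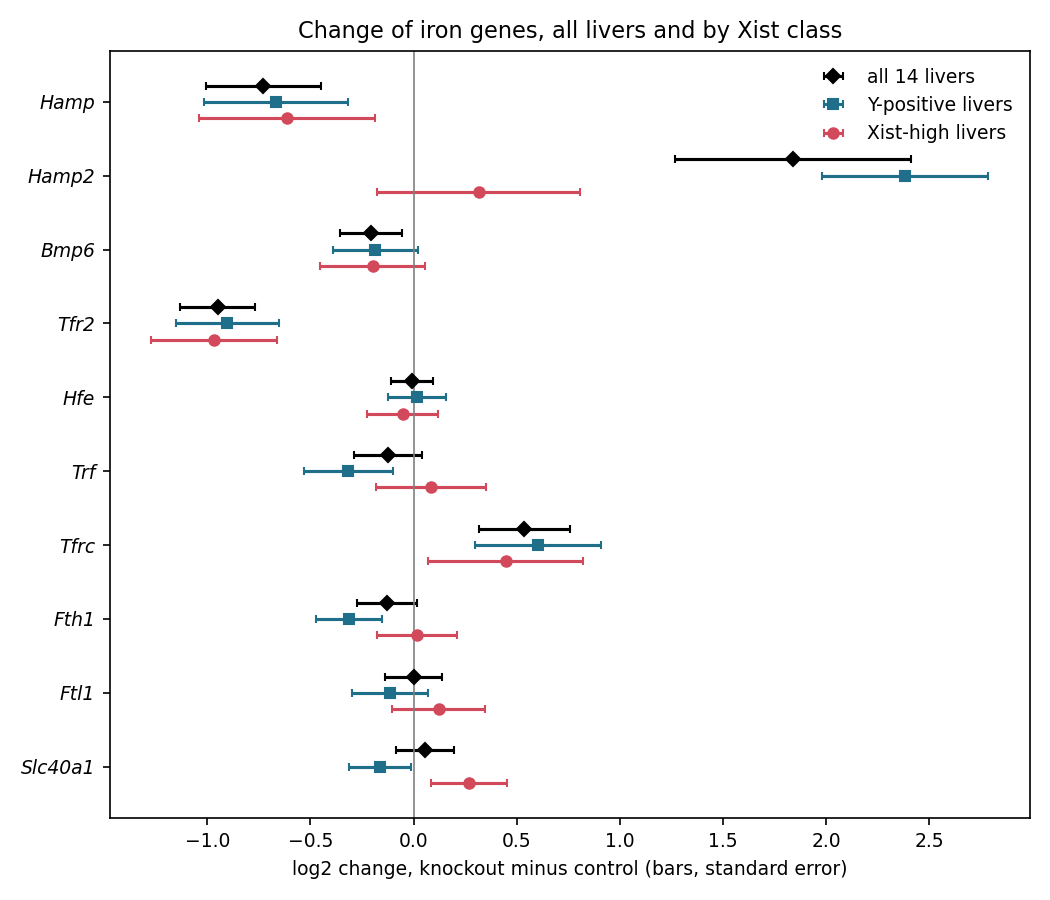
Change of each iron gene (horizontal axis, log2, knockout minus control; bars are standard errors) over all livers and within the Y-positive and Xist-high classes. Hamp2 lies at 2.38 in Y-positive and 0.32 in Xist-high livers, while Tfr2 lies at -0.90 and -0.97.

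The authors' deposited table gave the same calls for these genes, with q = 0.0312 for Hamp2 and q = 4.17e-05 for Tfr2. In the authors' deposited table Hamp had q = 0.0859 and Tfrc q = 0.106. That table called 17.1% of its 27865 genes at a q of at most 0.05.

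The regulators of hepcidin around these members were read from a list of BMP and SMAD genes. Of 26 tested, 7 were called higher and 2 lower in knockout livers, with a median change of 0.07, beside 11.5% higher and 11.0% lower over all genes. Hfe2, which encodes hemojuvelin, the BMP co-receptor of hepatocytes, was at 2007, 2567 and 2815 in knockout livers and at 991, 1179 and 1791 in control livers (lowest, median, highest). The groups did not overlap, as was so for 4.14% of all genes in this direction, and Hfe2 rose by 1.01 (SE 0.13, limma adjusted p = 0.000118). Smad7, an inhibitory SMAD that BMP signals induce and that holds back hepcidin, was at 117, 147 and 175 in knockout livers and at 67.2, 89.4 and 104 in control livers. It did not overlap either, and it rose by 0.73 (SE 0.13, limma adjusted p = 0.00105).

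Atoh8, a transcription factor that BMP signals induce and that acts on the hepcidin promoter, averaged 821 ± 271 in knockout livers and 384 ± 88.2 in control livers (SD). It rose by 1.06 (SE 0.21, limma adjusted p = 0.00214), with 7 of 8 knockout livers above every control liver. The 2 genes called lower were Smad9, a SMAD of the BMP branch, at -1.18 (SE 0.25, limma adjusted p = 0.00318), and Fgl1, a secreted hepatocyte protein that can hold back BMP signalling, at -1.15 (SE 0.28, limma adjusted p = 0.00848). The call of Fgl1 was lost without knockout livers 3, 6 and 7 (-0.87, limma adjusted p = 0.0567) and with quantile normalization (-0.73, limma adjusted p = 0.0667). The 4 other genes called higher, named after their values were seen, were Neo1 at 0.55, Bmpr1a at 0.52, Spint2 at 0.50 and Acvr2a at 0.46. Id1, a classical BMP target, was at 0.76 and did not pass (limma adjusted p = 0.0723), nor did Tmprss6, the protease that cleaves hemojuvelin, at -0.42 (limma adjusted p = 0.101). In the same list Smad6 lay at -0.20, Id2 at -0.15, Id3 at -0.15 and Id4 at 0.53. None of these passed (limma adjusted p of 0.195 to 0.721).

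Of 25 genes tested in the IL-6 and STAT3 list, which includes acute phase proteins, 2 were called higher and 6 lower, with a median change of -0.34, beside the same shares of 11.5% and 11.0% over all genes. Saa4 and Crp fell by 2.08 and 2.06 on the log2 scale (SE 0.43 and 0.40, limma adjusted p = 0.00302 and 0.0018). Crp averaged 1822 ± 1109 in knockout livers and 6155 ± 434 in control livers (SD), with no overlap, as was so for 4.02% of all genes in this direction. Il6ra, the IL-6 receptor, fell by 0.92 (SE 0.21, limma adjusted p = 0.00494). Lcn2, which binds bacterial iron chelators, rose by 1.79 (SE 0.44, limma adjusted p = 0.00938), and Il22ra1, a receptor that also signals to STAT3, rose by 0.71 (SE 0.20, limma adjusted p = 0.0188). The call of Il22ra1 was lost without knockout livers 3, 6 and 7 (0.40, limma adjusted p = 0.0833) and in Y-positive livers alone (0.61, limma adjusted p = 0.0919), and that of Il6ra was lost there too (-0.77, limma adjusted p = 0.0687). The other genes called lower, named after their values were seen, were Fgb at -0.68, Creb3l3 at -0.61 and Stat3 at -0.34. The acute phase genes not called included Saa1 at -0.89, Saa2 at -0.49 and Orm2 at -0.06, and also Orm3 at 1.25 and Apcs at 0.47 (limma adjusted p of 0.0704 to 0.926). Socs3 lay at -0.13 (limma adjusted p = 0.76). Saa4, Crp and Fgb are made in hepatocytes, and 2 of the 25, Cebpa and Fgb, are also among the hepatocyte markers above.

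The cell iron list held genes of iron sensing, ferritin turnover and oxygen sensing, the last including Epas1, Hif1a and Egln1. Of its 13 genes tested, 2 were called higher and 4 lower, where 22.4% of all genes were called. Their median change was -0.05. Both iron regulatory proteins were among the lower ones, with Aco1 (IRP1) at -0.45 (SE 0.13, limma adjusted p = 0.0232) and Ireb2 (IRP2) at -0.41 (SE 0.11, limma adjusted p = 0.0167). Aco1 averaged 618 ± 121 in knockout livers and 837 ± 107 in control livers, and Ireb2 averaged 1606 ± 224 in knockout livers and 2127 ± 280 in control livers (SD). Epas1, which encodes HIF-2α, fell by 0.63 (SE 0.13, limma adjusted p = 0.00289), and Hif1a fell by 0.53 (SE 0.09, limma adjusted p = 0.000733). With equal sums all 4 calls were lost, at -0.11 for Aco1, -0.07 for Ireb2, -0.29 for Epas1 and -0.19 for Hif1a. Without knockout livers 3, 6 and 7 the calls of Aco1 (-0.26, limma adjusted p = 0.11) and Ireb2 (-0.36, limma adjusted p = 0.0648) were lost as well. Pcbp1, a chaperone that delivers iron to ferritin, rose by 0.60 (SE 0.09, limma adjusted p = 0.000189), and its groups did not overlap. Egln1, an oxygen sensor, was the other gene called higher, at 0.33.

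Of 28 other genes of iron transport and heme turnover, 3 were called higher and 1 lower, with a median change of 0.03, where 22.4% of all genes were called. Steap3, the reductase of transferrin-bound iron in endosomes, was at 797, 899 and 1111 in knockout livers and at 369, 479 and 560 in control livers (lowest, median, highest). The groups did not overlap, and Steap3 rose by 0.98 (SE 0.11, limma adjusted p = 3.28e-05). Slc39a14, the ZIP14 importer of iron not bound to transferrin, was at 384, 626 and 781 in knockout livers and at 916, 973 and 1085 in control livers. It did not overlap either, and it fell by 0.71 (SE 0.15, limma adjusted p = 0.00275). Lcn2, counted here as well, and the mitochondrial iron importer Slc25a28, at 0.28 (SE 0.10, limma adjusted p = 0.0486), were the others called higher. The call of Slc25a28 was lost in 13 of the 14 fits that left out 1 liver (limma adjusted p up to 0.109).

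How these list counts split depended on the scaling. When the libraries' sums were made equal, leaving out ribosomal RNA, the median change of all genes moved by 0.33 on the log2 scale, and 7885 genes were called higher and 865 lower, against 2697 and 2583 with the deposited scaling. The BMP and SMAD list then had 15 higher and 2 lower, the IL-6 and STAT3 list 4 higher and 3 lower, the cell iron list 5 higher and 0 lower, and the transport list 12 higher and 1 lower. Under that scaling the changes were 2.18 for Hamp2, 0.87 for Tfrc, -0.39 for Hamp and -0.61 for Tfr2. Relative to the median of all genes they were 1.79, 0.49, -0.77 and -0.99. Such a rescaling moves all genes by nearly the same amount, so these relative values had to stay near the main ones and are no separate check.

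**Figure D4:**
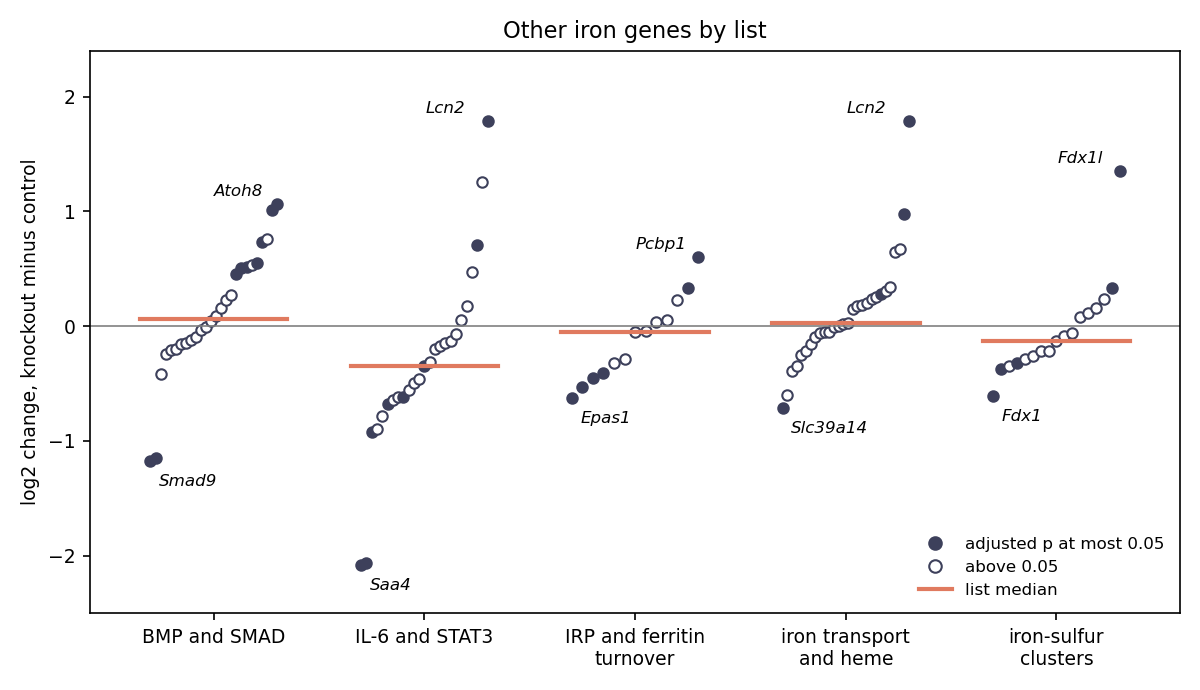
Change of each gene in 5 lists of other iron genes (vertical axis, log2, knockout minus control), ordered by change within a list. Filled points have a limma adjusted p of at most 0.05, open points a larger one, and lines are list medians; Hfe2 and Atoh8 are the topmost filled points of the BMP and SMAD list, at 1.01 and 1.06.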

How the data were processed

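Libraries were made with the Takara SMARTer stranded total RNA kit, per the labels; the strand setting is not given in the sources used here. The submitters' processing notes name kallisto, sleuth and the build mm10, without versions. The authors deposited signal values per library, which were kallisto's estimated counts after division by a library's size factor, as read from the values. They are not whole counts, so no interval or floor was computed, and values of shallow libraries are the least precise. The authors deposited p-value and q-value columns from a Wald test, and a change on the natural log scale, control minus knockout, which was not used as a log2 value. The 75859 lines of the table were reduced to 1 per gene. No sample column of unknown origin was present.

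Knockout and control livers were compared with limma 3.58.1 (R 4.3.3) and its trended empirical Bayes step. The input was log2(value + 1) of 23554 genes that reached 10 in 6 or more libraries, with p-values adjusted over all of them by Benjamini-Hochberg and called at 0.05. Further models added the Xist class and its product with genotype. The pipeline was tested on simulated data. The p-values measure the spread between the 14 livers. Means and SDs are of the values themselves.

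The iron genes, the lists of other iron genes and the cell type markers were chosen with earlier results of these data known, so counts over them are descriptions. Named genes were Mettl3, the 10 iron genes, up to 5 called genes of each list with the largest change, and 3 genes most like Hamp; the others named were picked after their values were seen. Of the genes that the rule names, 1 is not reported here, and the counts of its list include it. Promoter sequences are from RefSeq (GRCm38.p6), which matched 8 of the 10 genes, and positions and transcripts are from GENCODE M21 on GRCm38. Alternatives were the pseudocount, the filter, the scaling, the Xist class, depth, the replicate block and each library left out.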

Additional observations from a re-analysis of the deposited data

Results flagged for a closer look

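Dixon's test was applied to the 20 gene and group combinations of the 10 iron genes, and 2 were flagged, where chance flags about 1 in 20. Hamp2 in knockout liver 5, at 18978, lay far from the other 7 knockout livers, of which the highest was at 6191. Knockout liver 5 also had the highest Hamp, Tfr2 and summed hepatocyte markers of the knockouts, and it was the shallowest library, at 11.1 M estimated reads. Without it the change of Hamp2 was 1.59 (limma adjusted p = 0.046). Tfrc in knockout liver 4, at 353, lay far from the other knockout livers, of which the highest was at 218. Without it the change of Tfrc was 0.38 (limma adjusted p = 0.103).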

How the results depend on the processing

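Tfr2 was called lower in all alternatives tried except Xist-high livers alone (-0.97, limma adjusted p = 0.196). The number of iron genes called higher (1) was 0 with no filter, with Xist-high livers alone, without knockout livers 3, 6 and 7, with depth (log2 estimated reads) in the model and at a threshold of 0.01, 4 with equal sums outside ribosomal RNA (Hamp2, Tfrc, Hfe and Slc40a1), 2 with quantile normalization (Hamp2 and Ftl1), and 0 to 1 with 1 liver left out. The number called lower (1) was 2 in Y-positive livers alone (Hamp and Tfr2), 0 in Xist-high livers alone (limma; 1, Tfr2, under 0.05 before adjustment), and 1 to 2 with 1 liver left out. The number called between the classes (1) was 0 with no filter, with log2 estimated reads and at 0.01, and 0 to 1 with 1 liver left out. Over all genes, 5280 calls became 292 in Xist-high livers alone, 8750 with equal sums, 2669 at 0.01, and 4232 to 5648 with 1 liver left out. Changes with a turned sign in genes not called in the comparison of all livers were, with equal sums, 0.12 for Bmp6, 0.33 for Hfe, 0.21 for Trf, 0.21 for Fth1 and 0.34 for Ftl1; with quantile normalization, 0.07 for Hfe, 0.51 for Trf, 0.49 for Fth1 and 0.55 for Ftl1; in Xist-high livers alone, 0.08 for Trf, 0.02 for Fth1 and 0.12 for Ftl1; in Y-positive livers alone, 0.02 for Hfe and -0.16 for Slc40a1; 0.09 for Hfe without knockout livers 3, 6 and 7; and -0.03 for Slc40a1 with log2 estimated reads. With 1 liver left out, Hfe ranged from -0.06 to 0.03, Ftl1 from -0.05 to 0.05 and Slc40a1 from -0.02 to 0.11. Abcb8, called lower, was at 0.02 with equal sums. In Xist-high livers alone, of the genes named by rule from the lists of other iron genes, Steap3 and Fdx1l kept their calls and the others lost them. The causes were not tested. Same-numbered livers of the groups deviated together only weakly (r over genes 0.07 to 0.23 for 6 pairs), and 2 of 6 controls correlated best with their own number. Deviations were from genotype means, so they also hold the Xist class, which runs with the number. Livers of the same class with unlike numbers reached similar r, as knockout liver 4 with control liver 1 at 0.26. These r therefore cannot decide on pairing, and the livers were not taken as pairs. With the replicate block, over the 12 livers numbered 1 to 6, 3959 genes were called. Hamp2 was then at 1.83 and Tfr2 at -0.87, both called. Depth limits the low genes most, Bmp6 first among them.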

Other observations

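Of 17 genes of iron-sulfur cluster assembly and mitochondrial iron tested, 2 were called higher and 3 lower in knockout livers, with a median change of -0.13, where 22.4% of all genes were called. Fdx1l, the ferredoxin that gives electrons to cluster assembly, averaged 909 ± 184 in knockout livers and 353 ± 58.3 in control livers (SD, n = 8 and 6). Its groups did not overlap, and it rose by 1.35 on the log2 scale (SE 0.14, limma adjusted p = 1.26e-05). Fdx1, the related ferredoxin of steroid metabolism, fell by 0.60 (SE 0.16, limma adjusted p = 0.0125), a call lost with equal sums (-0.27) and without knockout livers 3, 6 and 7 (-0.39). The mitochondrial transporter Abcb8 was at -0.32 and the glutaredoxin Glrx5 at 0.33, and both passed in limma. Leaving out 1 liver lost the call of Abcb8 in 10 of 14 fits (limma adjusted p up to 0.0963) and that of Glrx5 in 6 of 14 (up to 0.0727). With libraries set to equal sums outside ribosomal RNA, 7 genes of this list were called higher and 0 lower.

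Genes whose variation between livers resembled that of Hamp were read from log2 deviations from the mean of each genotype and class, over 14 livers and 11776 genes with a mean above the median. The highest Pearson r were 0.949 for Tob1, 0.941 for Ctdsp1 and 0.940 for Sh2b1. Among the iron genes r was 0.827 for Tfr2, 0.756 for Hfe and 0.707 for Hamp2, and -0.442 for Ftl1 and -0.648 for Fth1. Between these lay Trf at 0.29, Slc40a1 at 0.22 and Tfrc at 0.04. These values are descriptions: the livers share their libraries and depth, and knockout livers 5, 6 and 7 hold the extremes of Hamp.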
